A study of Mus musculus with 9 samples.

Results

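The genes described are 10 tubulin isotypes and microtubule-associated proteins, chosen by name from the 54232 genes listed in each deposited file. They are the neuronal β-tubulin Tubb3, the β-tubulins Tubb2a, Tubb2b, Tubb4a and Tubb5, the β-tubulin Tubb6, the α-tubulin Tuba1a, and the microtubule-associated proteins Map2, Mapt and Map1b. All 10 were found in the files through their Ensembl identifiers, and all 10 passed the filter on low counts that left 15712 genes for testing.

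RNA was sequenced from 9 libraries of wild-type cortical neurons of CD1 mice, an outbred stock, in 3 groups of 3 repeats. In the PA + PS2 group the library names give IKVAV together with PEDOT-S-OH. In the PA group they give IKVAV, a laminin sequence, carried here by a peptide amphiphile (PA), a molecule whose peptide head bears an alkyl tail. In the control group they give PDL. Every library, control or not, carries the treatment label Peptide amphiphile, so the groups were read from the titles. Ages, doses and times are not given in the labels. The labels do not say that the repeats were separate cultures, so the p-values measure the spread between these libraries, which may be technical.

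Microtubules are hollow polymers of α- and β-tubulin dimers, and they carry transport and give shape to axons and dendrites. A mammalian genome encodes several β-tubulins that share a conserved core and differ mainly in the acidic tail at the carboxy terminus, the surface that motors, modifying enzymes and microtubule-associated proteins meet. Tubb3 is the isotype used to mark neurons, Tubb2a, Tubb2b and Tubb4a are abundant in brain, Tubb5 is made in many cell types including neurons and their progenitors, and Tubb6 is known mainly from tissues outside the brain.

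The coding sequences of the tails are shown because they are where the isotypes differ most, and because the close pair in them limits what read counts can separate. Each line gives the last 60 coding bases, stop codon included, in the mm10 build from GENCODE M21 transcripts, with all letters in lower case except the 3 positions at which Tubb2a and Tubb2b differ, which are in capitals.
Tubb3, chr8:123421623-123421682, plus strand: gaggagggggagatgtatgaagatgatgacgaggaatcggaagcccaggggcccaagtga
Tubb2a, chr13:34074468-34074527, minus strand: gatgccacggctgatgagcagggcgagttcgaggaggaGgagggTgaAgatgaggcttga
Tubb2b, chr13:34127471-34127530, minus strand: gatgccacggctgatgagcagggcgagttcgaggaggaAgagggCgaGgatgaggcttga
Tubb4a, chr17:57080690-57080749, minus strand: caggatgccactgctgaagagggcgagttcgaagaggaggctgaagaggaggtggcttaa
Tubb5, chr17:35834982-35835041, minus strand: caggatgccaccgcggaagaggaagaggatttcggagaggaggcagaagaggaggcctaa

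Over the whole coding sequence, Tubb2a and Tubb2b were identical at 96.5% of aligned positions, and the other pairs of these 5 genes at 81.2% to 84.5%. In the tail, Tubb3 matched the other 4 at 43.3% to 50.8% of positions, Tubb4a matched Tubb5 at 79.4%, and Tubb2a matched Tubb2b at 95%. Of all windows of 50 bases in the Tubb2a transcript, 49.6% also occurred in another gene, and 45.6% occurred in Tubb2b. For Tubb2b the share was 39.3%, and for Tuba1a it was 72.9%, with Tuba1c the gene that shared most. The counts of Tubb2a, Tubb2b and Tuba1a are therefore uncertain where reads could belong to either copy. In Tuba1a, 26.2% of the exon length also overlaps the gene model Gm49450 on the same strand. Tubb3, Tubb6, Map2, Mapt and Map1b shared no window with another gene, and Tubb4a and Tubb5 shared 0.184% and 0.115%. In the same build, Tuba1a lies at chr15:98949837-98953703, Map2 lies at chr1:66175273-66442583, Mapt lies at chr11:104231390-104332090 and Map1b lies at chr13:99421446-99516540. An antisense gene, Gm10558, covers 0.754% of the exon length of Map2, and whether the counting used strand is not stated.

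Library totals ran from 20746851 to 27237398 counts, and 22064 to 24702 genes had at least 1 count. Levels are given in CPM, counts scaled to a common library size, with sizes adjusted by edgeR's trimmed mean of M values. The 10 genes took 2.01% to 2.49% of all reads in a library, and 6 of them were among the 20 highest tested genes by mean CPM. Map1b ranked 2nd, Tubb5 3rd, Mapt 4th and Tubb3 9th. Tubb6 rested on 120 to 221 reads per library, for which the counting error alone reached 9.13%. The neuron markers Rbfox3, Snap25, Syt1, Syn1, Nefm, Nefl, Eno2, Elavl3 and Elavl4 were all detected in every library, with a summed level of 2657 to 2824 CPM in PA + PS2, 2438 to 2739 CPM in PA and 2619.9 to 2728 CPM in control libraries.

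Tubb3 (ENSMUSG00000062380), the neuron-marking isotype, had 2357, 2348 and 2599 CPM in PA + PS2 libraries, 3069, 1781 and 2511 CPM in PA libraries, and 2453, 2040.3 and 2243 CPM in control libraries. The groups overlapped, and both the highest and the lowest library were PA libraries. Its mean was 2435 ± 142 CPM in PA + PS2, 2454 ± 646 CPM in PA and 2246 ± 206 CPM in control (SD, n = 3 each).

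Tubb5 (ENSMUSG00000001525), the broadly made isotype, had 3579.8, 3588 and 3891 CPM in PA + PS2 libraries, 4569, 2775 and 3811 CPM in PA libraries, and 3712, 3308 and 3456 CPM in control libraries. PA repeat 1 was again the highest and PA repeat 2 the lowest. Tubb2b (ENSMUSG00000045136), a brain isotype, had 2017, 1975 and 2124 CPM in PA + PS2, 2443, 1617 and 2109 CPM in PA, and 2123, 1786 and 1798 CPM in control libraries. Its near copy Tubb2a (ENSMUSG00000058672) had 536, 522 and 563 CPM in PA + PS2, 635, 461 and 541 CPM in PA, and 529, 487 and 487 CPM in control libraries. Both overlapped between the groups. Tubb4a (ENSMUSG00000062591), an isotype of neurons and oligodendrocytes, had 381, 357 and 389.7 CPM in PA + PS2, 437, 288 and 364 CPM in PA, and 410.0, 326 and 337 CPM in control libraries, again with PA repeats 1 and 2 at the ends.

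Tubb6 (ENSMUSG00000001473) had 5.77, 5.97 and 5.03 CPM in PA + PS2 libraries, 8.1, 6.66 and 7.03 CPM in PA libraries, and 7.68, 9.61 and 9.81 CPM in control libraries. The PA + PS2 libraries lay below all 6 others, while PA and control overlapped through control repeat 1. Its mean was 5.59 ± 0.497 CPM in PA + PS2, 7.26 ± 0.746 CPM in PA and 9.03 ± 1.17 CPM in control (SD, n = 3 each).

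Tuba1a (ENSMUSG00000072235), the main α-tubulin of young neurons, had 1371, 1369 and 1602 CPM in PA + PS2, 984, 1121 and 1533 CPM in PA, and 1165, 1241 and 1674 CPM in control libraries. In every group repeat 3 was the highest, and the groups overlapped.

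Among the microtubule-associated proteins, Map2 (ENSMUSG00000015222), which binds microtubules of dendrites, had 1941, 2031 and 2227 CPM in PA + PS2, 1767, 2128 and 2403 CPM in PA, and 1873, 2020.3 and 2379 CPM in control libraries. Mapt (ENSMUSG00000018411), which encodes tau, a protein of axonal microtubules, had 3579, 3641 and 3794 CPM in PA + PS2, 4097, 3017 and 3681 CPM in PA, and 3714, 3341 and 3336 CPM in control libraries. Map1b (ENSMUSG00000052727), a protein of growing axons, had 5746, 6457 and 6623 CPM in PA + PS2, 6975, 6145 and 7452 CPM in PA, and 5953, 5371 and 7067 CPM in control libraries. None of these 3 separated the groups. For all 10 genes the coefficient of variation was smallest in the PA + PS2 group. The share of all tested genes with this order was not counted, so it is not shown to be particular to the 10. Several of the 10 also varied together across libraries, as described below.

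**Figure D1:**
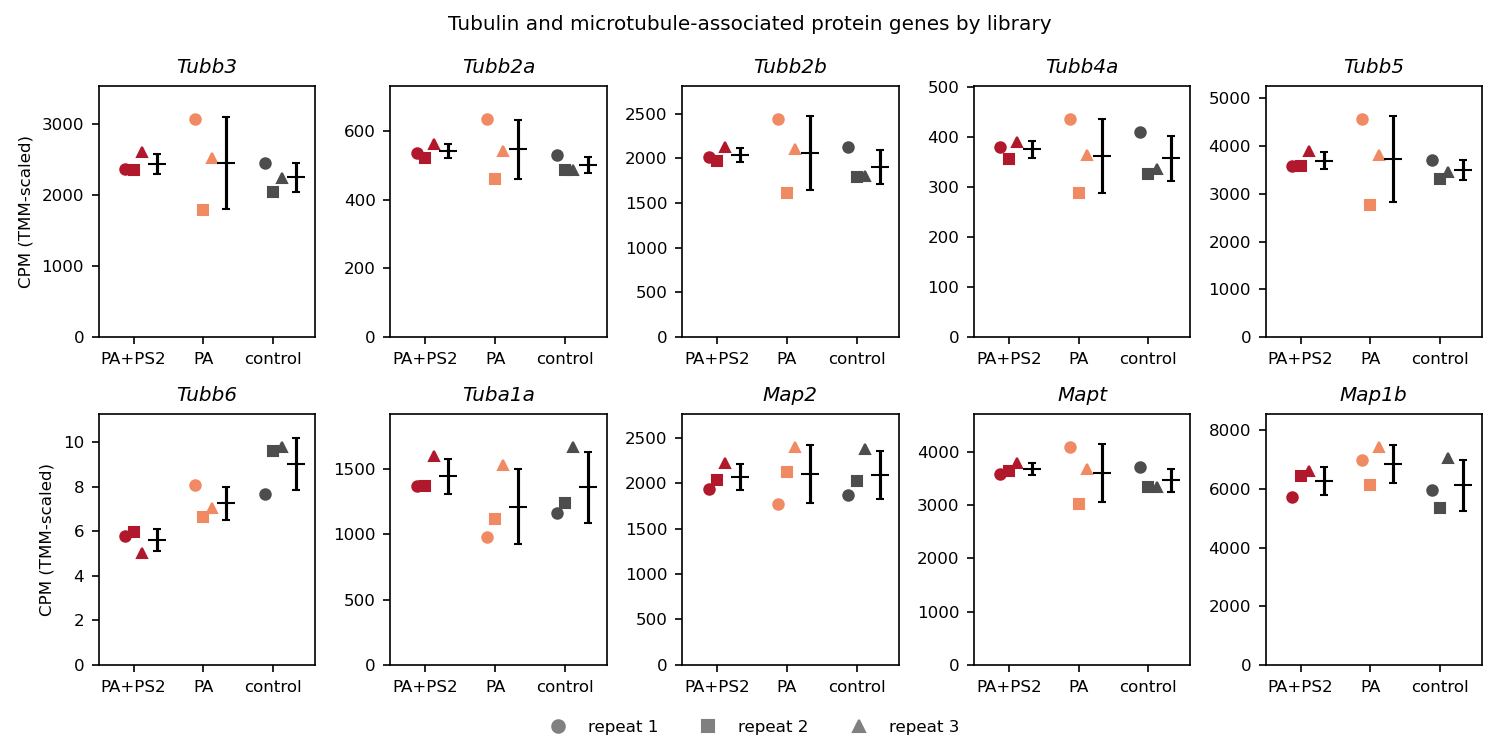
Level of each of the 10 genes in CPM (vertical axes from 0) in PA + PS2, PA and control libraries. Symbols are repeats, and the bars beside them are the mean and SD of 3 libraries. PA libraries are spread most for the β-tubulins other than Tubb6, and Tubb6 is lowest in the 3 PA + PS2 libraries, at 5.03 to 5.97 CPM.

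Levels of different genes were compared per kilobase of exon. In this order Tubb3 came first, followed by Tubb5, Tubb2b, Tuba1a, Mapt, Map1b, Tubb2a, Tubb4a, Map2 and Tubb6. Tubb3 had 1303 ± 76.3 CPM per kilobase in PA + PS2, 1313 ± 346 in PA and 1202 ± 110.4 in control libraries (SD, n = 3 each). Tubb6 had 2.29 ± 0.204, 2.98 ± 0.306 and 3.71 ± 0.481 CPM per kilobase in PA + PS2, PA and control libraries. Each gene lay above the next in all 9 libraries, except that Tubb2b and Tuba1a, Mapt and Map1b, and Tubb4a and Map2 were in this order in 8 of 9. Divided by the longest coding transcript in place of all exons, Tubb5 came before Tubb3, and Map2 moved up to 7th, above Tubb2a in 6 of 9 libraries.

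As a share of all β-tubulin reads per kilobase, Tubb3 made up 34% ± 0.397 in PA + PS2, 33.8% ± 1.22 in PA and 33.5% ± 0.792 in control libraries (SD, n = 3 each). The difference in the Tubb3 share between PA + PS2 and control was 0.453 percentage points, and it was 0.0238 without control repeat 2. Between PA and control it was 0.3 points, and it was -0.222 without PA repeat 1 and -0.13 without control repeat 2. Tubb5 made up 28.9% ± 0.193, 28.9% ± 0.4 and 29.3% ± 0.604 in PA + PS2, PA and control libraries. Tubb2b held 23.2%, 23.3% and 23.1%, Tubb2a 8.75%, 8.88% and 8.7%, and Tubb4a 4.4%, 4.24% and 4.47%, in the same order of groups. These shares varied less between libraries than the summed amount did. Summed β-tubulin was 11238 CPM in PA repeat 1 and 6980.0 CPM in PA repeat 2, while the Tubb3 share in these libraries was 34.9% and 32.5%.

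Tubb6 was the smallest of the tested β-tubulins. Its share was 0.0631%, 0.0661% and 0.0511% in PA + PS2 libraries, 0.0705%, 0.0931% and 0.0732% in PA libraries, and 0.0809%, 0.118% and 0.115% in control libraries. Here PA + PS2 lay below every PA and control library. Per kilobase, Tubb3 exceeded Tubb6 by 533, 513 and 674 times in PA + PS2, 494, 349 and 466 times in PA, and 417, 277 and 298 times in control libraries. Another β-tubulin, Tubb4b, made up 0.753%, 0.789% and 0.778% in PA + PS2, PA and control libraries. Its counts are uncertain too, as 50.9% of its windows of 50 bases also occurred in another gene, and 43.6% in Tubb4b-ps1. Tubb1, the isotype of platelets, had 0 or 1 read in each library.

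The α-tubulins beyond Tuba1a were low. Tuba1b had 23.2 ± 6.07 CPM in PA + PS2, 26.6 ± 4.41 CPM in PA and 23.4 ± 1.72 CPM in control libraries (SD, n = 3 each). Tuba1c had 8.42, 16.8 and 15.6 CPM in PA + PS2, 18, 13 and 14.2 CPM in PA, and 4.77, 13.2 and 12.8 CPM in control libraries, with control repeat 1 the lowest. Tuba4a had 5.34, 3.74 and 5.2 CPM in PA + PS2, 6.66, 4.44 and 5.07 CPM in PA, and 6.29, 4.04 and 4.14 CPM in control libraries, and it shares 37.3% of its exon length with Stk16 on the other strand. Tuba3a, Tuba3b and Tubal3 had 0 reads in all libraries, and Tuba8 had at most 2. Of windows of 50 bases, 73.8% in Tuba1b and 61% in Tuba1c also occurred in another gene. Gm49450 overlaps 22.7% of the exon length of Tuba1b on the same strand. Tuba1a, Tuba1b and Tuba1c share long stretches of sequence, so their levels and their division of reads are uncertain.

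In PA + PS2 against control, the levels of the neuronal isotypes and of the microtubule-associated proteins did not separate, and Tubb6 was the member with the largest difference. None of the 10 passed an adjusted p of 0.05 in edgeR's quasi-likelihood test over all tested genes, where 0.0446% of genes passed. Without Tubb6, the log2 fold changes ran from -0.02 for Map2 to 0.12 for Tubb3, and their 95% confidence intervals together spanned -0.30 to 0.48. For Tubb3 the log2 fold change was 0.12 ± 0.16 (SE) with an interval of -0.24 to 0.48. The median of the 10 was 0.08, and that of all tested genes was 0.00, with 8 of the 10 and 49.8% of all tested genes above 0.

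Tubb6 had a log2 fold change of -0.69 ± 0.17 (SE), 0.62 times the control level, with a 95% interval of -1.06 to -0.32 on the log2 scale. It was lower in 3 of 3 PA + PS2 libraries, and 6.54% of all tested genes had PA + PS2 libraries entirely below the control libraries. Its unadjusted p was 0.00174 in edgeR's test, and 0.98% of all tested genes had a p as small. The adjusted p was 0.176, and it was 0.0979 with the repeat number as a block, a fit in which 184 genes, or 1.17%, passed in place of 7. DESeq2 gave an adjusted p of 0.0418, where 1.26% of its genes passed. Over all other settings and omissions of a library the adjusted p ran from 0.0444 to 0.714, and Tubb6 passed with DESeq2 and with the block plus an adjustment for GC content, an adjustment chosen after the data were seen, and in no other setting run.

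In PA against control, no member passed, and 0 genes passed among all tested, with 1.22% of genes at an unadjusted p under 0.05 in edgeR's test and 0 passing in DESeq2. The members' log2 fold changes ran from -0.31 for Tubb6 to 0.16 for Map1b, and those without Tubb6 had 95% intervals that together spanned -0.55 to 0.49. Tubb6 had a log2 fold change of -0.31 ± 0.17 (SE), with an interval of -0.68 to 0.05. No member separated the groups, against 4.04% of all tested genes. For Tubb3 the log2 fold change was 0.13, and it was -0.07 without PA repeat 1.

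In PA + PS2 against PA, no member passed and 0 genes passed among all tested, with 5.61% of genes at an unadjusted p under 0.05 in edgeR's test and 0.693% passing in DESeq2. Tubb6 had a log2 fold change of -0.38 ± 0.17 (SE) at an unadjusted p of 0.0492 and an adjusted p of 0.88 in edgeR's test. Its PA + PS2 libraries lay below all PA libraries, which held for 6.32% of tested genes. Tuba1a had a log2 fold change of 0.25 ± 0.17 and Map1b of -0.13 ± 0.12, and the other 7 were within 0.05 of 0. PA + PS2 and PA are each set against the same control libraries, so the comparisons with control are not independent.

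**Figure D2:**
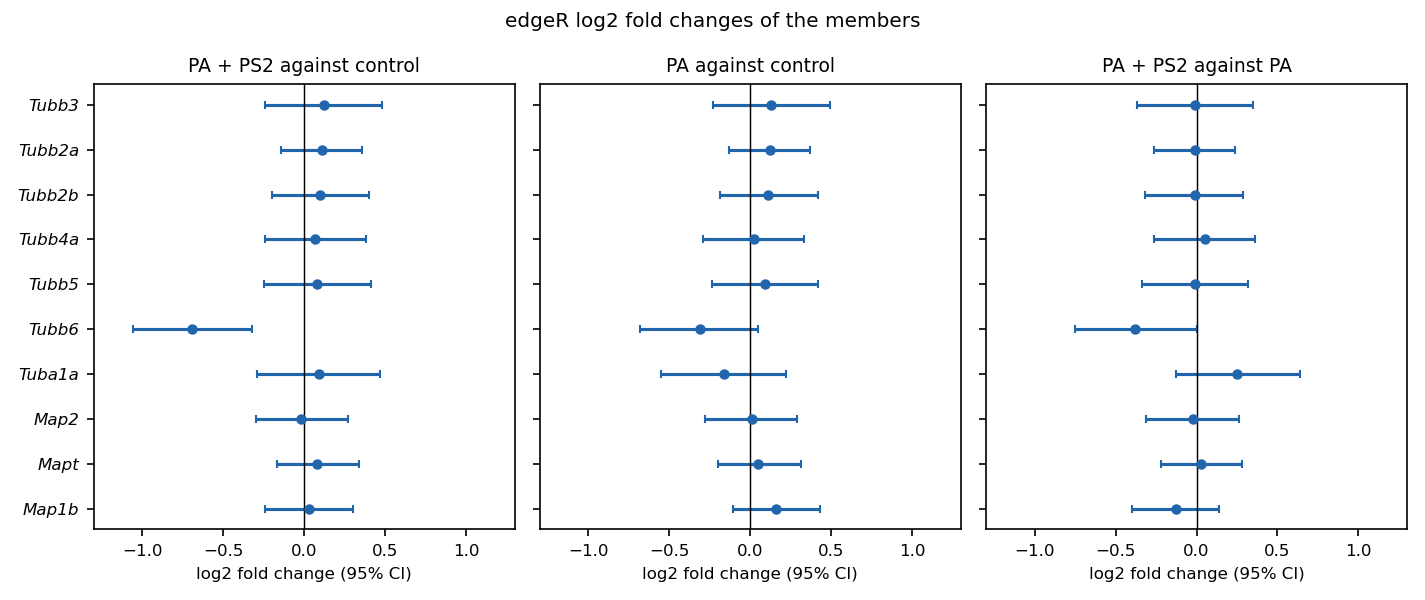
Log2 fold change of the 10 genes from edgeR in the 3 comparisons, with 95% confidence intervals. Every interval includes 0 except those of Tubb6 in PA + PS2 against control, from -1.06 to -0.32, and in PA + PS2 against PA, where the upper bound rounds to 0.00.

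The members did not vary independently across libraries. Tubb3, Tubb5, Tubb2b, Tubb2a, Tubb4a and Mapt were each highest in PA repeat 1 and lowest in PA repeat 2 of all 9 libraries. The level in PA repeat 1 was 1.72 times that in PA repeat 2 for Tubb3, 1.65 times for Tubb5, 1.51 times for Tubb2b and 1.36 times for Mapt. Among these 6 genes, the 15 pairs had Pearson correlations of log2 CPM of 0.908 to 0.993 over the 9 libraries, which share their scaling. Tuba1a and Map2 did not follow them, with 0.878 and 0.83 times the level in PA repeat 1 as in PA repeat 2. These 2 genes correlated with each other at 0.823, and with Tubb3 at -0.0516 and -0.313.

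**Figure D3:**
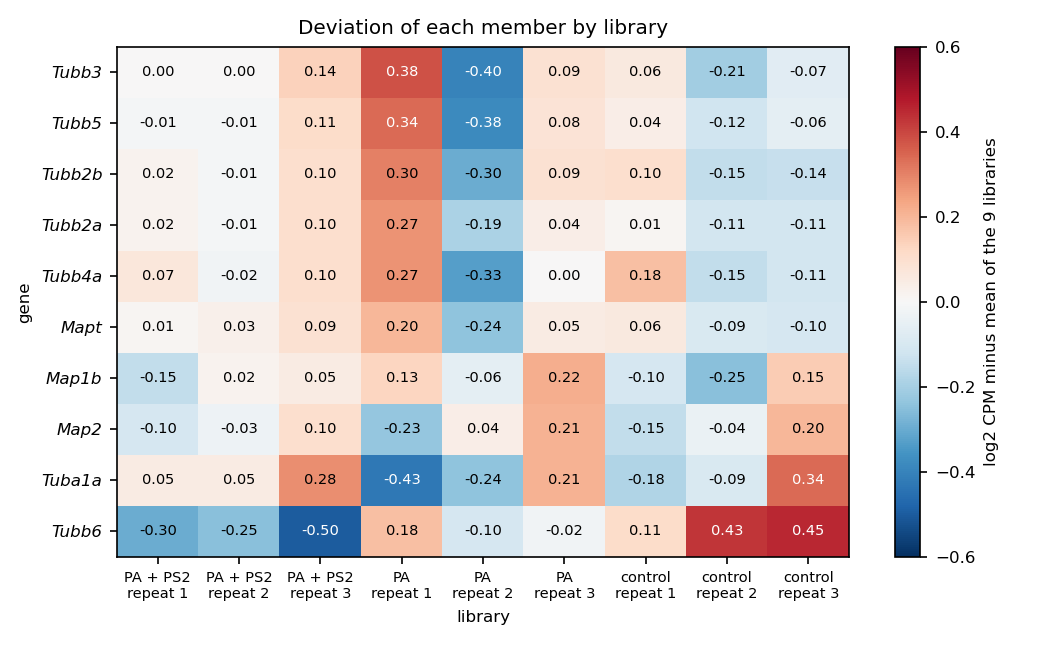
Deviation of each gene from its mean log2 CPM over the 9 libraries, with libraries along the horizontal axis and genes down the vertical axis. The upper 6 rows share a high PA repeat 1 and a low PA repeat 2, from 0.38 and -0.40 for Tubb3 to 0.20 and -0.24 for Mapt.

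The same libraries differed in how gene level followed base composition. Across 15699 tested genes, the Spearman correlation of transcript GC content with the deviation of a library from the mean was 0.684 in PA repeat 1, 0.406 in control repeat 1 and 0.131 in PA + PS2 repeat 1. In the other 6 libraries it ran from -0.468 to -0.113. Tubb3 has 57.9% GC, Tubb4a 57.2%, Tubb6 56.6%, Tubb2a 55.2%, Tuba1a 53.2%, Mapt 52.5%, Tubb5 52%, Tubb2b 51.2%, Map2 47.8% and Map1b 47.6%. With the trend on GC removed, the log2 difference between PA repeat 1 and PA repeat 2 was 0.55 for Tubb3, against 0.78 before, and 0.63 for Tubb5, against 0.72. The same difference was -0.33 for Tuba1a, against -0.19 before, and 0.32 for Map1b, against 0.18. The spread within groups became smaller for 7 of the 10 genes, while for Tuba1a the SD on the log2 scale rose from 0.26 to 0.32. PA repeat 1 also had the lowest mitochondrial share of reads, 0.342%, and PA repeat 2 the highest, 1.39%, and the part of these in the members' pattern was not tested.

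**Figure D4:**
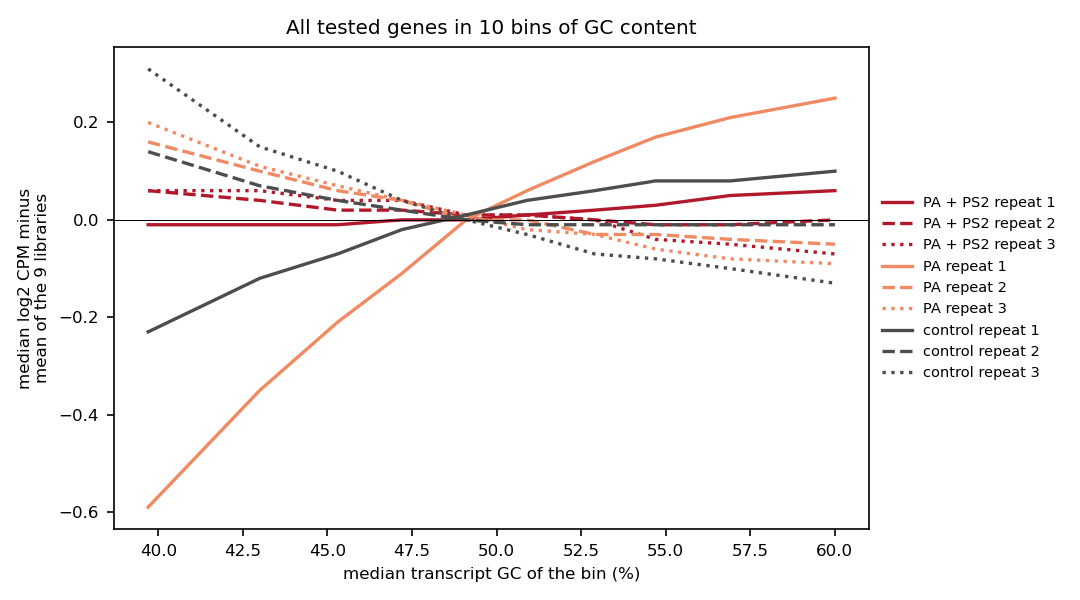
Median deviation in log2 CPM of all tested genes, in 10 bins of transcript GC content (horizontal axis, median of the bin in percent), with 1 line per library. PA repeat 1 has the steepest line, at -0.59 in the bin of lowest GC, and in that bin the PA + PS2 libraries are at -0.01 to 0.06.

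The genes most like Tubb3 over the 9 libraries, among 8973 protein-coding genes of at least 10 CPM, were Tubb5 with a Pearson correlation of 0.993, Prcc with 0.991, Pnmal2 and the ubiquitin ligase gene Pja1 with 0.989, and the kinase gene Mapk3 with 0.986. Those most like Map2 were Mid2 with 0.979, Zfp871 with 0.978, the receptor gene Bmpr2 with 0.977, and Zbtb41 and Pdzd8 with 0.975. Transcript GC was 52% for Tubb5, 56.9% for Prcc, 57.4% for Pnmal2, 50.2% for Pja1 and 57.6% for Mapk3, beside 57.9% for Tubb3. For the genes most like Map2 it was 36.9% to 46.2%, beside 47.8% for Map2. These correlations used levels without GC adjustment, and the part of GC content in them was not tested. The genes most like Tubb6 were Thbs1 with 0.956, Cnn2 with 0.943, Vim with 0.939, Palld with 0.934 and Fam210b with 0.931. Thbs1 encodes a secreted matrix protein, Cnn2 and Palld bind actin, and Vim encodes an intermediate filament protein. Thbs1 fell by 1.08, Cnn2 by 1.44 and Palld by 1.20 on the log2 scale in PA + PS2 against control, at adjusted p of 0.0338, 0.0338 and 0.0375 in edgeR's test. These genes were chosen for their likeness to Tubb6 over the same libraries, so their direction follows from that choice. Each of the 3 passed in 4 of the 9 fits that left out 1 library, and the highest adjusted p in those fits was 0.17 for Thbs1, 0.204 for Cnn2 and 0.231 for Palld. Vim stood at -0.72 with an adjusted p of 0.0588 in edgeR's test, which was 0.0124 with the repeat block. It passed in 2 of the 9 fits that left out 1 library, with a highest adjusted p of 0.298 in edgeR's test.

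Markers of other cells moved with Tubb6 in the same libraries. The 7 progenitor markers summed to 215 to 244 CPM in PA + PS2, 298 to 347 CPM in PA and 289 to 409 CPM in control libraries, and this sum correlated with Tubb6 at 0.908 over the 9 libraries. Vim, itself among the genes most like Tubb6, made up 53.8% to 64.6% of that sum. The other 6 progenitor markers summed to 91.6 to 103 CPM in PA + PS2, 131 to 151 CPM in PA and 102 to 168 CPM in control libraries, so PA + PS2 and control overlapped, and the correlation was 0.775. The fibroblast and mural list summed to 11.9 to 57 CPM in PA + PS2, 89.3 to 159 CPM in PA and 135 to 195 CPM in control libraries, with a correlation of 0.833. The proliferation list summed to 51.9 to 73.1 CPM in PA + PS2, 109 to 182 CPM in PA and 78.4 to 211 CPM in control libraries, with a correlation of 0.726. None of the marker genes passed in PA + PS2 against control in the main edgeR test, which was run without the repeat block. With it, where 1.17% of all tested genes passed, 2 of 7 progenitor genes were lower (Vim and Nes), as were 4 of 8 tested fibroblast and mural genes (Col1a1, Pdgfrb, Acta2 and Tagln) and 5 of 7 proliferation genes (Mki67, Top2a, Cdk1, Ccna2 and Aurkb). In the oligodendrocyte lineage list 3 of 7 were lower (Olig1, Olig2 and Pdgfra), while the myelin gene Mbp had a log2 fold change of 0.46 and did not pass. Its PA + PS2 libraries lay wholly above the control libraries. The progenitor gene Hes5 had 0.44 and did not pass.

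The oligodendrocyte lineage list summed to 44 to 61.7 CPM in PA + PS2, 59.7 to 67.9 CPM in PA and 51.4 to 76.2 CPM in control libraries, with a correlation with Tubb6 of 0.692. The astrocyte list summed to 163 to 198 CPM in PA + PS2, 208 to 248 CPM in PA and 159.9 to 264 CPM in control libraries, with a correlation of 0.464. The microglia list summed to 3.93 to 5.7 CPM in PA + PS2, 5.17 to 7.33 CPM in PA and 6.04 to 8.3 CPM in control libraries, with a correlation of 0.519. The endothelial list summed to 1.58 to 3.32 CPM in PA + PS2, 3.53 to 5.32 CPM in PA and 3.83 to 7.64 CPM in control libraries, with a correlation of 0.776, and its PA + PS2 libraries lay below all others. Lum, Cldn5, Tek and Cdh5 were at 0 in at least 1 library, and no other marker was. In these bulk samples, fewer cells of a type and less RNA per cell cannot be told apart, and the part of other cells in the Tubb6 levels was not tested.

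**Figure D5:**
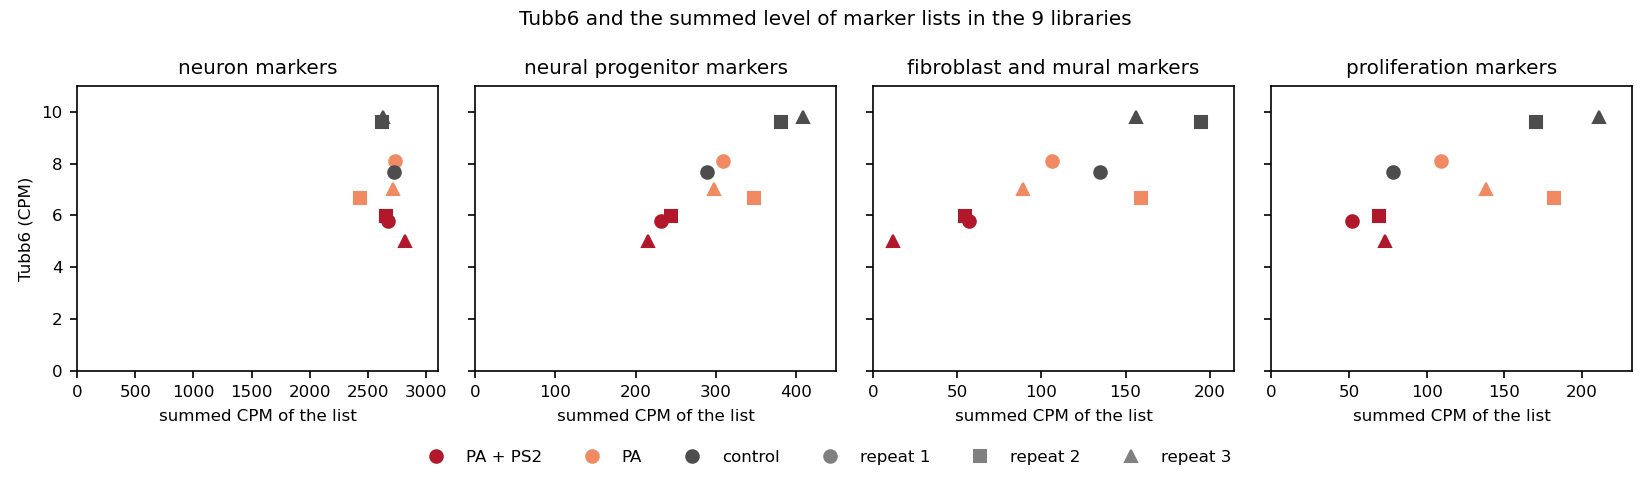
Tubb6 in CPM (vertical axes) against the summed CPM of 4 marker lists (horizontal axes), with 1 point per library, coloured by group and shaped by repeat. The PA + PS2 libraries are lowest on both axes for the progenitor, the fibroblast and mural, and the proliferation markers. Neuron markers keep to 2438 to 2824 CPM.

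A wider set of 151 genes of the microtubule system was listed in 10 groups by role. Of these, 143 were tested, the 10 members among them, and none passed in any comparison, with the repeat block or without it. Against control, 127 of them in PA + PS2, or 88.8%, lay within 0.2 of 0 on the log2 scale, against 70% of all tested genes. For PA against control 133 did, or 93%, against 74.6%, and for PA + PS2 against PA 128 did, or 89.5%, against 68.8%. All tested genes were not matched in level to the listed genes, and the part of level in this contrast was not tested. At an unadjusted p under 0.05 in edgeR's test there were 3 of the 143, or 2.1%, in PA + PS2 against control, against 5.63% of all tested genes. There was 1 in PA against control, or 0.699%, against 1.22% of all tested genes. There were 4 in PA + PS2 against PA, or 2.8%, against 5.61% of all tested genes.

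By role in PA + PS2 against control, the median log2 fold change was 0.08 over 7 β-tubulins, 0.04 over 4 α-tubulins and -0.03 over 18 nucleation genes. It was 0.03 over 16 lattice-binding proteins, 0.03 over 17 end-binding proteins and 0.05 over 20 folding and assembly genes. It was 0.05 over 16 modifying enzymes, 0.05 over 13 severing and depolymerising genes, 0.02 over 21 transport motor genes and 0.01 over 11 kinase and phosphatase genes. These medians stood beside 0.00 for all tested genes.

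Kif2c, a kinesin that depolymerises microtubules in dividing cells, had 2.5, 2.78 and 3.41 CPM in PA + PS2, 5.49, 6.74 and 5.86 CPM in PA, and 2.79, 8.13 and 7 CPM in control libraries. PA + PS2 lay below all PA libraries, as did 7 of the 143 genes, or 4.9%, and 6.32% of all tested genes. It overlapped control repeat 1, which was far below the other 2 controls. Its log2 fold change was -1.04 ± 0.33 (SE) against control, at an adjusted p of 0.384 in edgeR's test. Kif2c passed without control repeat 1 and with no filter on low counts, and the proliferation markers above were also lowest in PA + PS2. Kif18a, another mitotic kinesin, had a log2 fold change of -0.55 ± 0.36 against control.

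Kif21a, a kinesin of neurons, had 203, 222 and 216 CPM in PA + PS2, 191, 205 and 211 CPM in PA, and 187, 189.9 and 186 CPM in control libraries. The PA + PS2 libraries all lay above the control libraries, which held for 5.38% of tested genes. The PA libraries also all lay above them, which held for 1.97%. For PA + PS2 the log2 fold change was 0.19 ± 0.08 (SE), at an adjusted p of 0.844 in edgeR's test. The dynein intermediate chain gene Dync1i1 had a log2 fold change of 0.25 ± 0.13 and the kinesin gene Kif3c of 0.16 ± 0.11 in PA + PS2 against control. Neither passed.

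Ttll11, an enzyme that adds glutamates to tubulin tails, had 7.94, 7.71 and 9.27 CPM in PA + PS2, 10.3, 9.05 and 8.34 CPM in PA, and 7.81, 5.65 and 6.54 CPM in control libraries. The PA libraries all lay above the control libraries, which held for 1.97% of tested genes, with a log2 fold change of 0.47 ± 0.17 (SE) and an adjusted p of 1 in edgeR's test. Vash2, which removes the terminal tyrosine of α-tubulin, had a log2 fold change of 0.17 ± 0.11 and the deglutamylase gene Agbl3 of -0.24 ± 0.19 in PA + PS2 against control.

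Macf1, which links microtubules to actin, had 883, 948 and 874 CPM in PA + PS2, 1055, 1258 and 1130.2 CPM in PA, and 981, 824 and 1237 CPM in control libraries. The PA + PS2 libraries lay below all PA libraries, a pattern of 6.32% of all tested genes, with a log2 fold change of -0.35 ± 0.14 (SE) and an adjusted p of 0.722 in edgeR's test, and both overlapped control. Among genes with the smallest p of their lists, Map7, which recruits kinesin to microtubules, had a log2 fold change of 0.51 ± 0.26, Stmn1, which binds tubulin dimers, of 0.19 ± 0.12, and the kinase activator Cdk5r1 of 0.14 ± 0.14 in PA + PS2 against control. The augmin genes Haus3, Haus4 and Haus6 had -0.57 ± 0.48, -0.31 ± 0.23 and -0.24 ± 0.23. Tbcel and Pfdn2, from the folding and assembly list, had 0.11 ± 0.10 and 0.10 ± 0.11. The lattice-binding genes Map6d1 and Map10 had 0.22 ± 0.18 and 0.18 ± 0.20, and the end-binding genes Mapre2 and Nav3 had 0.06 ± 0.10 and 0.06 ± 0.11. Ttc5, a factor in the control of tubulin mRNA, had -0.09 ± 0.11, and the phosphatase subunit genes Ppp2r2c and Ppp2r2b had 0.13 ± 0.13 and 0.05 ± 0.09. None of these passed.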

How the data were processed

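The authors deposited raw read counts per Ensembl gene, 1 file per library, as whole numbers with no normalization. The submitters' processing notes list HTSeq 2.0.2, STAR 2.7.5, DESeq2 1.14.1, cutadapt 4.2 and the build mm10, with no roles. Annotation, strand setting and filters are not given in the sources used here. Labels differ on RNA selection, naming polyA RNA in 1 field and a total RNA library kit in another. Names and coordinates came from GENCODE M21, which matched 54165 of 54232 identifiers.

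All 9 libraries were fitted together with edgeR 4.0.16 in R 4.3.3, by its 2-sided quasi-likelihood F test with 6 residual degrees of freedom, TMM scaling, filterByExpr (minimum count 10, minimum total 15) and Benjamini-Hochberg adjustment over 15712 genes, which held 99.9% of counts. A gene passed at an adjusted p below 0.05. The script was tested on simulated data. The SE of a log2 fold change is its size divided by the root of F. Alternatives were median-ratio size factors, library totals, no filter, DESeq2 1.42.0, a replicate block, each pair of groups alone and omission of each library. An adjustment for transcript GC content and the progenitor sum without Vim were chosen after the data were seen.

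The members and gene lists were chosen with earlier results of these data known. All 10 members are named. From each list, genes that passed and up to 3 with the smallest p in PA + PS2 against control are named, with the 5 genes most correlated with Tubb3, Tubb6 and Map2. Some list genes are also given in the other comparisons, and marker genes are named where they passed with the block or went against their list.

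Repeat numbers 1 to 3 are shared by the groups. Correlations of same-numbered deviations from group means were 0.183, 0.217 and 0.135 for PA + PS2 and control, and 0.422, 0.365 and 0.28 for PA and control. All were over 0.1, so the repeat numbers may mark pairs there, a reading from the data and not the labels. The main test did not use these pairs. Only the replicate block, run as an alternative, did.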

Additional observations from a re-analysis of the deposited data

How the results depend on the processing

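For PA + PS2 against control 7 genes passed, and the number was 17 with median-ratio size factors, 2 with library totals, 365 with no filter, 28 with the 2 groups alone, 212 with DESeq2, 184 with the replicate block, 47 with GC adjustment and 331 with GC adjustment and the block. With 1 library left out it ran from 0 to 175. It was 0 without PA + PS2 repeat 1, control repeat 2 or control repeat 3, 2 without PA + PS2 repeat 2, 1 without PA + PS2 repeat 3, 18 without PA repeat 1 and 175 without control repeat 1. In PA against control it was 0, and 23 with no filter. In PA + PS2 against PA it was 0, and 330 with no filter, 57 with the replicate block, 121 with DESeq2, 2 with GC adjustment and 198 with GC adjustment and the block. It ran there from 0 to 37 with 1 library left out, with 2 without PA + PS2 repeat 2 and 37 without control repeat 1. For PA + PS2 and PA the same-numbered correlations were 0.0147, 0.292 and 0.302. Repeat 1 fell below the threshold used for the comparisons with control, while repeats 2 and 3 lay above it. These values do not settle whether the repeat numbers mark pairs there. The cause of the changes in the number of passing genes was not tested.

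Of the members, 1 passed in PA + PS2 against control with DESeq2 and 1 with GC adjustment and the block. Both were Tubb6, at a log2 fold change of -0.69 in each and adjusted p of 0.0418 and 0.0444. Its log2 fold change ran from -0.79 to -0.62 with 1 library left out. The replicate block alone changed no member's call. Of the 143 tested genes of the microtubule lists, Kif2c was the only other to pass under any alternative. It did so in PA + PS2 against control with no filter and without control repeat 1, and in PA + PS2 against PA with no filter. Of 240 member values under alternatives other than the omission of a single library, 14 changed sign, each within 0.06 of 0. In PA against control Tubb4a was -0.03 with GC adjustment, with or without the block. For PA + PS2 against PA, Tubb3 was 0.02 with the block, 0.00 with the 2 groups alone, 0.05 with GC adjustment and 0.06 with both. Tubb2a was 0.02 with GC adjustment and 0.03 with both. Tubb2b was 0.01 with the block, 0.00 with GC adjustment and 0.02 with both, and Tubb5 was 0.01, 0.01 and 0.03.

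With 1 library left out, 41 of 270 values changed sign. In PA + PS2 against control the ranges were -0.01 to 0.27 for Tuba1a, -0.09 to 0.09 for Map2 and -0.04 to 0.15 for Map1b. In PA against control they were -0.07 to 0.30 for Tubb3, 0.00 to 0.22 for Tubb2a, -0.03 to 0.25 for Tubb2b, -0.14 to 0.15 for Tubb4a, -0.08 to 0.25 for Tubb5, -0.37 to 0.01 for Tuba1a, -0.10 to 0.12 for Map2 and -0.05 to 0.16 for Mapt. Ranges in PA + PS2 against PA were -0.18 to 0.18 for Tubb3, -0.10 to 0.11 for Tubb2a, -0.14 to 0.13 for Tubb2b, -0.07 to 0.21 for Tubb4a, -0.17 to 0.16 for Tubb5, -0.13 to 0.09 for Map2 and -0.06 to 0.13 for Mapt. Tubb6 rested on 120 to 221 reads a library, which limits its precision. The difference in the Tubb3 share of β-tubulin ran from 0.0238 to 0.803 percentage points in PA + PS2 against control, from -0.222 to 0.969 in PA against control and from -0.516 to 0.676 in PA + PS2 against PA. That in the Tubb6 share ran from -0.0562 to -0.0377, from -0.0373 to -0.0188 and from -0.0231 to -0.0118 in the same comparisons.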
